A study of Homo sapiens with 8 samples.

Results

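The eukaryotic elongation factor 1 (eEF1) complex was followed in T3M4 cells, an established human pancreatic cancer line, carrying a guide RNA against METTL13 (sgMETTL13) or a control guide (sgControl). Its genes were taken by symbol from the deposited count table: EEF1A1, EEF1A2, EEF1B2 and EEF1G, 4 of the 5 named for the complex, out of 14668 genes. EEF1D was not analysed here. Lysates were split for poly(A) RNA-seq and for ribosome profiling, in which ribosomes are caught with a puromycin analog and the mRNA fragments they protect (footprints) are counted. Each guide had 2 libraries per assay, 8 in all, and every culture had been held 18 h without serum and then given 10% FBS for 2 h. Neither the clonal state of the cells nor the origin of the replicates is labelled, and each p-value below reflects library-to-library spread that may be technical.

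During elongation, eEF1A bound to GTP brings each aminoacyl-tRNA to the ribosome and leaves it bound to GDP. EEF1A1 encodes the form made in nearly all tissues, and EEF1A2 a close paralog best known from muscle and neurons that is also made in some tumours. The guanine nucleotide exchange subunits encoded by EEF1B2 and EEF1D reload eEF1A with GTP, and EEF1G encodes the subunit that anchors them. METTL13 methylates the N terminus and a lysine of eEF1A. The mRNAs of the complex belong largely to the TOP class, whose first bases are a C and a tract of pyrimidines that mTOR signalling reads.

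The starts of the genes are shown because that tract is the feature their mRNAs are known for. Of the RefSeq (GRCh38.p14) start windows available here, 4 covered 3 of the genes. None was available for EEF1A2, a gene that RefSeq does annotate. Each window runs 15 bases before and 15 bases from the annotated start on, 5′ to 3′ on the strand of the gene. Capitals mark the longest run of C and T that begins with a C within 5 bases of the start and is at least 4 long, a rule set after the sequences were seen.
EEF1A1, chr6:73521018-73521047, minus strand: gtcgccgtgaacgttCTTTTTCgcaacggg
EEF1B2, upstream start, chr2:206159594-206159623, plus strand: gccggaagtggCCCCagcctcgaggccggg
EEF1B2, downstream start, chr2:206159880-206159909, plus strand: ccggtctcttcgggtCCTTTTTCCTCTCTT
EEF1G, chr11:62573877-62573906, minus strand: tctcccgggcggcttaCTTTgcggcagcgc
EEF1A1 had a run of 7 pyrimidines from its first base, the downstream start of EEF1B2 a run of 16 from its first base, whose last base lies past the end of the printed window, and EEF1G a run of 4 from its second. The run of 4 at the upstream start of EEF1B2 ends on the base before the annotated start and lies outside the annotated transcript. A run of this kind, searched on the gene strand alone, stood at 34.1% of 35116 annotated starts, so the short runs are common.

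The library totals ran from 8916807 to 9837253 counts in sgMETTL13 footprints and from 6063885 to 8181707 in sgControl footprints, and from 39899139 to 48353722 in sgMETTL13 mRNA and from 20860953 to 36436106 in sgControl mRNA. METTL13, the targeted gene, read 20.1 and 26.2 footprint CPM (counts scaled to library size) in sgMETTL13 and 65.2 and 57.8 CPM in sgControl. The sgMETTL13 cells thus still held METTL13 footprints. METTL13 mRNA read 25.2 and 35.1 CPM in sgMETTL13 against 89.7 and 71.4 CPM in sgControl. The difference did not pass the mRNA test (log2 fold change -1.42, edgeR adjusted p = 0.9999). It passed, at -1.68, only without sgMETTL13 mRNA replicate 2, which leaves 1 library in that group and no spread within it. Of 8 markers of pancreatic epithelial lines 8 were in the table. Their summed footprints were 1674 to 1744 CPM in sgMETTL13 and 1642 to 1725 CPM in sgControl. Mean sgMETTL13 footprints were 588 CPM for KRT19, 552 for EPCAM and 363 for CDH1, against 4.13 for MUC1 and 0.0508 for CEACAM6. KRT7, KRT8 and KRT18 lay between. Muscle markers (4 of 6 in the table) summed to 2.42 to 2.84 footprint CPM in sgMETTL13 and 2.56 to 3.02 CPM in sgControl. Neuron markers (6 of 6) summed to 42.2 to 46.1 CPM in sgMETTL13 and 43.4 to 46.2 CPM in sgControl. Of these, TUBB3 averaged 36.1 footprint CPM in sgMETTL13 and 37.3 in sgControl, and MAP2 6.65 and 6.86. RBFOX3, SYP, SNAP25 and SYN1 averaged at most 0.634 footprint CPM in either arm.

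EEF1A1 footprints rose in sgMETTL13 and EEF1A2 footprints fell, so the paralogs of the METTL13 substrate moved in opposite directions. EEF1B2 and EEF1G did not pass the test. Thus 1 of the 4 genes was called higher and 1 lower, where 21% of the 10714 genes tested were called at an edgeR adjusted p below 0.05, 8.94% higher and 12% lower. The median log2 fold change was 0.22 over the 4 genes and 0.01 over the genes tested. In such bulk libraries fewer cells with an mRNA and less of it per cell cannot be told apart.

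EEF1A1 had 408 and 369 footprint counts in sgMETTL13 and 196 and 117 in sgControl. Scaled to library size these were 41.5 and 40.5 CPM in sgMETTL13 and 23.7 and 20.0 CPM in sgControl. Both sgMETTL13 libraries lay above both sgControl libraries, as in 32% of the genes tested in footprints. The gap was larger than the difference within either pair of replicates. The log2 fold change was 0.90 (SE 0.166, n = 2 per arm, 95% interval 0.56 to 1.24), past the threshold of edgeR's quasi-likelihood test over the genes tested (adjusted p = 0.000354). With any 1 of the 4 footprint libraries left out the log2 fold change lay between 0.79 and 1.03. Each such fit leaves 1 library in an arm and no spread within it. In a model that pooled the spread of the footprint and mRNA libraries, 0 genes were called, and EEF1A1 (edgeR adjusted p = 0.418) and EEF1A2 (edgeR adjusted p = 0.592) lost their calls.

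EEF1A2 had 360 and 297 footprint counts in sgMETTL13 and 388 and 321 in sgControl, from shallower sgControl libraries. Its scaled footprints were 36.6 and 32.6 CPM in sgMETTL13 and 46.9 and 54.9 CPM in sgControl. The arms did not overlap, as in 64.1% of the genes tested in footprints (32% higher and 32% lower in sgMETTL13), and the highest library was sgControl replicate 2. EEF1A2 fell by 0.55 on the log2 scale, with a 95% interval of -0.87 to -0.23 (SE 0.156, n = 2 per arm). Its edgeR adjusted p was 0.0117. The call ended without sgControl replicate 2 (log2 fold change -0.44, edgeR adjusted p = 0.112) or sgMETTL13 replicate 2 (-0.47, edgeR adjusted p = 0.183).

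EEF1B2 had few footprints, 43 and 31 counts in sgMETTL13 and 25 and 17 in sgControl. They came to 4.37 and 3.40 CPM in sgMETTL13 and 3.02 and 2.91 CPM in sgControl. The sgMETTL13 libraries were the higher ones, as in 32% of the genes tested in footprints. The log2 fold change of 0.39 (SE 0.318) had an interval from -0.26 to 1.04 and did not pass (edgeR adjusted p = 0.408). With so few counts, values across that interval could not be told apart.

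EEF1G was measured with far more footprints, 7505 and 6494 counts in sgMETTL13 and 5409 and 4492 in sgControl. Its levels were 763 and 713 CPM in sgMETTL13 and 654 and 768 CPM in sgControl, and the arms overlapped. The log2 fold change was 0.05 (SE 0.121, edgeR adjusted p = 0.796). Its interval, -0.19 to 0.30, leaves out changes of the size seen in EEF1A1 and EEF1A2. EEF1G had the smallest standard error of the 4 genes in footprints.

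**Figure D1:**
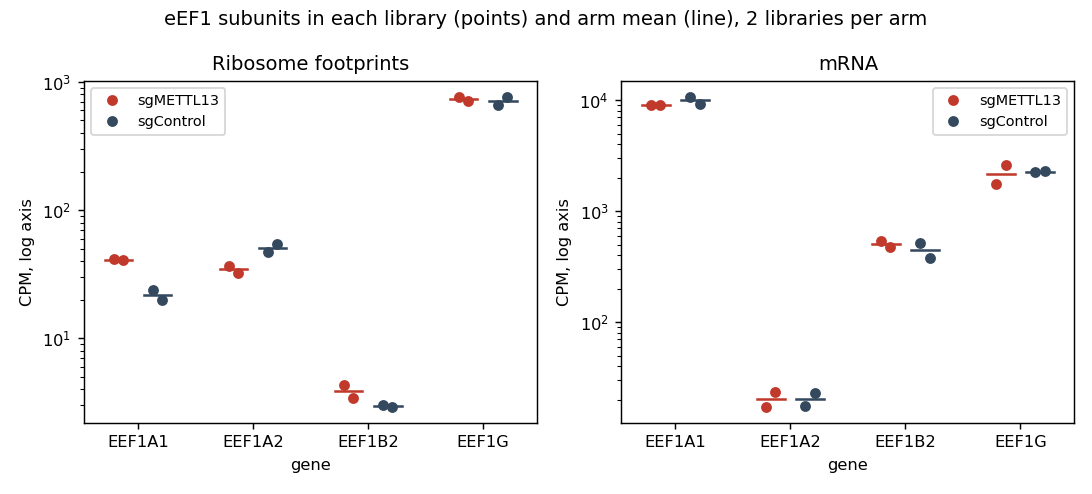
Scaled counts (CPM) of each eEF1 gene in each library on a log axis, ribosome footprints left and mRNA right, with sgMETTL13 in red and sgControl in dark blue; points are libraries and lines the means of 2. EEF1A1 footprints lie at 41.5 and 40.5 CPM in sgMETTL13 and at 23.7 and 20.0 CPM in sgControl, and EEF1A2 footprints lie the other way. The mRNA points of each gene look close on this axis, though EEF1G mRNA differs between sgMETTL13 replicates, at 1772 and 2595 CPM.

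The paralog comparison was taken within each library, where library size cancels. EEF1A1 made up 53.1% and 55.4% of the EEF1A1 plus EEF1A2 footprint counts in sgMETTL13 and 33.6% and 26.7% in sgControl. The 95% Wilson intervals, which cover counting error alone, ran from 49.6% to 59.1% over the sgMETTL13 libraries and from 22.8% to 37.5% over the sgControl libraries. EEF1A1 was thus the larger share of these counts in the sgMETTL13 libraries and the smaller in the sgControl libraries.

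The log2 ratio of EEF1A1 to EEF1A2 footprints was 0.25 ± 0.09 in sgMETTL13 and -1.22 ± 0.33 in sgControl (SD, n = 2 each). The difference of 1.47 was larger than the spread between replicates (pooled SD 0.245). An exact two-sided permutation test gave p = 0.333, the smallest that 2 against 2 libraries allow, so this ratio cannot pass a threshold here. Summed over the paralogs, footprints were 78.0 and 73.1 CPM in sgMETTL13 and 70.6 and 74.9 CPM in sgControl, and the arms overlapped. The higher EEF1A1 and the lower EEF1A2 footprints therefore left the summed CPM within the range of the libraries. RefSeq lists 50 numbered pseudogenes of EEF1A1 and 0 of EEF1A2, and how reads with several matches were counted is not given. EEF1A1 footprints over mRNA were also among the lowest of all genes, as given below. The shares and the sum thus compare arms and do not measure how much of each paralog was made.

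**Figure D2:**
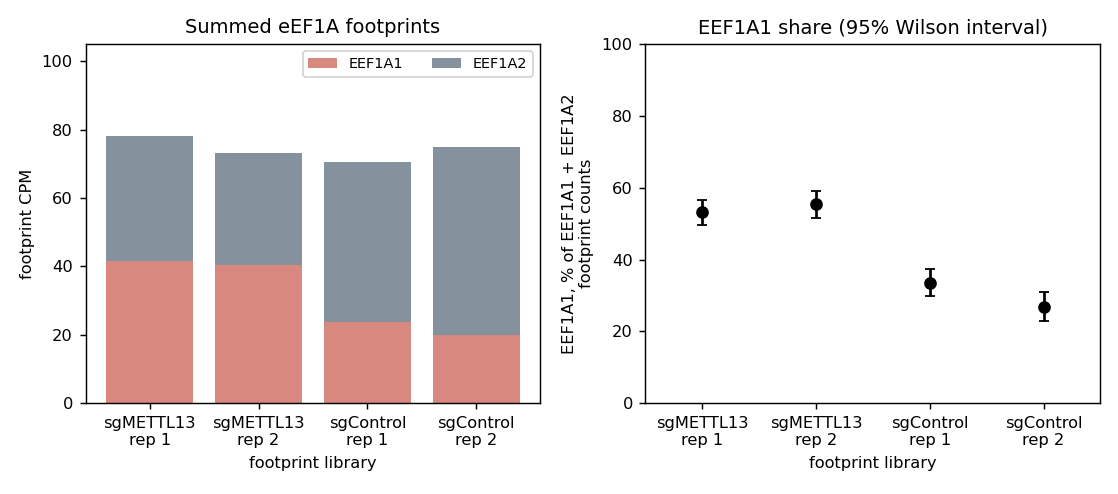
Left, footprint CPM of EEF1A1 and EEF1A2 stacked for each footprint library; right, the percentage of the summed EEF1A1 and EEF1A2 footprint counts that was EEF1A1, with 95% Wilson intervals for counting error. The bars reach 78.0 and 73.1 CPM in sgMETTL13 and 70.6 and 74.9 CPM in sgControl, while the EEF1A1 share is 53.1% and 55.4% in sgMETTL13 and 33.6% and 26.7% in sgControl.

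No eEF1 mRNA passed the test, and no mRNA of the table did: of 12468 genes tested, 0 (0%) were called by edgeR, 0 by DESeq2 and 0 by limma voom, and 100 had an edgeR p under 0.05 before adjustment. The count was 27 without sgMETTL13 replicate 1, 2506 without sgMETTL13 replicate 2, 0 without sgControl replicate 1 and 3 without sgControl replicate 2. EEF1A1 mRNA read 9049 and 9157 CPM in sgMETTL13 and 10796 and 9232 CPM in sgControl. That was 0.886% and 0.921% of the mRNA counts in sgMETTL13 and 1.10% and 0.919% in sgControl. Both sgMETTL13 libraries were slightly below both sgControl libraries, an arrangement seen in 6.84% of genes (5.11% had the opposite one, 12% either), and the log2 fold change was -0.14 (SE 0.316).

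EEF1A2 mRNA read 17.1 and 23.6 CPM in sgMETTL13 and 17.6 and 22.9 CPM in sgControl. The replicate 2 libraries were the higher of each pair and the arms coincided, giving a log2 fold change of 0.01 (SE 0.438). Its sign turned with total counts as the scale (-0.0089), without sgMETTL13 replicate 2 (-0.24) and without sgControl replicate 1 (-0.14). A RefSeq lncRNA, LOC124904955 (chromosome 20, 63498282 to 63501468), overlaps EEF1A2 (63488014 to 63499083), and the strand setting of the counting is not given in the sources used here.

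Among the exchange factor subunits, EEF1B2 mRNA read 536 and 473 CPM in sgMETTL13 and 520 and 377 CPM in sgControl (log2 fold change 0.17, SE 0.341). EEF1G mRNA read 1772 and 2595 CPM in sgMETTL13 and 2266 and 2283 CPM in sgControl (-0.06, SE 0.337). The sgMETTL13 replicates of EEF1G lay on either side of the sgControl pair. The 95% intervals of the mRNA changes reached from -0.83 to 0.55 for EEF1A1, -0.95 to 0.96 for EEF1A2, -0.58 to 0.91 for EEF1B2 and -0.80 to 0.68 for EEF1G. Changes within those bounds were not detectable, and the mRNA data do not show the levels to be equal.

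EEF1A1 made up 99.8% and 99.7% of the paralogs' summed mRNA counts in sgMETTL13 and 99.8% and 99.8% in sgControl. The log2 ratio of EEF1A1 to EEF1A2 mRNA was 8.82 ± 0.31 in sgMETTL13 and 8.96 ± 0.43 in sgControl (SD, n = 2 each). The difference of -0.13 was smaller than the spread between replicates (exact permutation p = 0.667, smallest possible 0.333). The shift seen between the paralogs in footprints was thus not seen in mRNA, and the difference between the assays was tested gene by gene below.

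Ratios among the other subunits moved less. The log2 ratio of EEF1B2 to EEF1G footprints was -7.58 ± 0.19 in sgMETTL13 and -7.90 ± 0.20 in sgControl (SD, n = 2 each), a difference of 0.32 (exact permutation p = 0.333, the smallest possible). In mRNA the same ratio was -2.09 ± 0.52 in sgMETTL13 and -2.36 ± 0.34 in sgControl, a difference within the replicate spread (exact permutation p = 0.667, n = 2 each). Summed EEF1B2 and EEF1G footprints stood 9.83 and 9.80 times above summed EEF1A1 and EEF1A2 footprints in sgMETTL13 and 9.30 and 10.3 times in sgControl, and these arms overlapped. In mRNA that ratio was 0.255 and 0.334 in sgMETTL13 and 0.258 and 0.287 in sgControl. These are ratios of counts not corrected for length, so they compare arms and not the amounts of different subunits. Mean footprints were 738 CPM for EEF1G and 3.89 for EEF1B2 in sgMETTL13, and 711 and 2.97 in sgControl. The EEF1B2 and EEF1G sum in footprints was thus mostly EEF1G. EEF1A1 footprints over mRNA were among the lowest of all genes, as given below.

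Footprints per mRNA were tested as the interaction of guide and assay over the 8 libraries. EEF1A1 had the largest value of the 4 genes, a log2 change of 1.05 (SE 0.278, 95% interval 0.43 to 1.68), with an unadjusted p of 0.00394 and an edgeR adjusted p of 0.999. EEF1A2 read -0.55 (SE 0.404), EEF1B2 0.23 (SE 0.390) and EEF1G 0.12 (SE 0.337), each with an edgeR adjusted p of 0.999. In this comparison 0 of 10446 genes (0%) were called by edgeR, 5 by DESeq2 and 0 by limma voom, and 347 had an edgeR p under 0.05 before adjustment. A change specific to footprints was therefore not established for any eEF1 gene.

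That outcome for EEF1A1 rested on the sgMETTL13 mRNA libraries. Its change in footprints per mRNA passed at 0.95 without sgMETTL13 mRNA replicate 1 and at 1.08 without replicate 2. Either fit leaves 1 sgMETTL13 mRNA library and no spread within that group, so passing there does not establish a change. EEF1G read -0.22 without sgMETTL13 mRNA replicate 1, against 0.12 with all libraries.

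**Figure D3:**
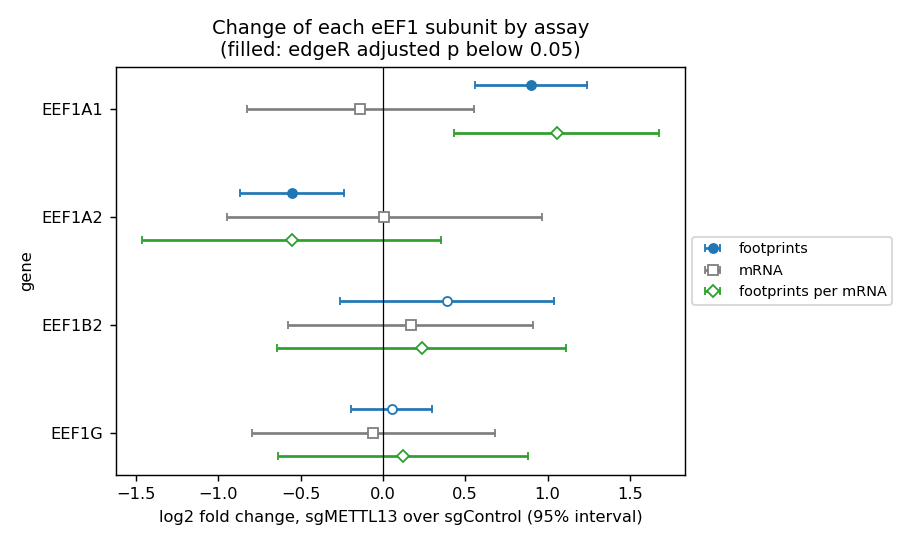
Log2 fold change of sgMETTL13 over sgControl for each eEF1 gene in footprints, in mRNA and in footprints per mRNA, with 95% intervals from the edgeR fits on 2 libraries per group; filled symbols passed at an adjusted p below 0.05. The 2 filled symbols are EEF1A1 footprints at 0.90 and EEF1A2 footprints at -0.55, and the mRNA intervals span 0.

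The genes of the complex differed by orders of magnitude in footprints relative to mRNA. Within libraries of the same guide and replicate number, EEF1A1 footprint CPM were 0.00458 and 0.00442 of its mRNA CPM in sgMETTL13 and 0.00220 and 0.00217 in sgControl. Of about 10446 genes measured in both assays, 8 and 7 had a lower ratio in sgMETTL13 and 4 and 3 in sgControl. The most abundant eEF1 mRNA thus carried nearly the fewest counted footprints per mRNA of any gene.

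EEF1B2 was close to it, at 0.00816 and 0.00719 in sgMETTL13 and 0.00581 and 0.00771 in sgControl. EEF1G read 0.430 and 0.275 in sgMETTL13 and 0.289 and 0.336 in sgControl, between the 18.9th and the 31.0th percentile of genes. EEF1A2 stood at the other side, at 2.14 and 1.38 in sgMETTL13 and 2.66 and 2.40 in sgControl, between the 64.0th and the 85.9th percentile. The order from EEF1A1 through EEF1B2 and EEF1G to EEF1A2 held in each pair of libraries.

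RefSeq lists 50 numbered pseudogenes of EEF1A1, 8 each of EEF1B2 and EEF1G and 0 of EEF1A2. EEF1B2 and EEF1G had the same number of pseudogenes and differed widely in footprints per mRNA. How reads that match several places were counted is not given in the sources used here. Over the table, the median log2 ratio of footprints to mRNA in sgControl was -1.61 for 307 genes with 5 or more numbered pseudogenes, -0.33 for 1513 genes with 1 to 4 and -0.17 for 8625 genes with 0. EEF1A1 read -8.84 on this scale, EEF1B2 -7.22, EEF1G -1.68 and EEF1A2 1.34. Of the 26 genes at or below EEF1B2, a count that holds EEF1A1 and EEF1B2, 23 had a numbered pseudogene and 20 had 5 or more. Among all 10445 genes ranked, 307 had 5 or more and 1513 had 1 to 4. The part of pseudogene number in these ratios was not tested.

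**Figure D4:**
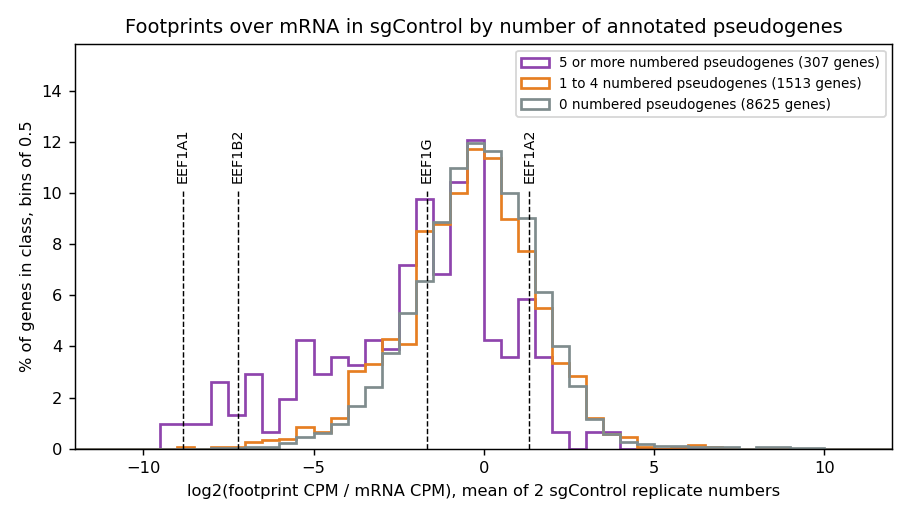
Distribution of the log2 ratio of footprint CPM to mRNA CPM in sgControl (mean of 2 replicate numbers) for genes with 5 or more, 1 to 4 or 0 numbered pseudogenes in RefSeq, as a percentage of each class in bins of 0.5; dashed lines mark the eEF1 genes. EEF1A1 at -8.84 and EEF1B2 at -7.22 lie in the low tail, where the class with 5 or more pseudogenes has a larger percentage of its genes than the others, and EEF1A2 at 1.34 lies in the upper part.

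Footprint changes also went with that annotation. Among the genes with 5 or more numbered pseudogenes, 79 of 311 tested (25.4%) were called higher in sgMETTL13 and 23 (7.4%) lower, with a median log2 fold change of 0.22. Among the genes with 0, 663 of 8876 (7.47%) were called higher and 1113 (12.5%) lower, with a median of -0.01. EEF1A1 at 0.90 exceeded 280 of the other 310 genes of its class, and 1046 of the other 8875 genes of the EEF1A2 class lay below EEF1A2 at -0.55. The part of pseudogene number in the EEF1A1 change was not tested.

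By distance between profiles over the 8 libraries, the genes most like EEF1A1 among 8163 were PPIA, RPL23A, YBX1, RPS20 and RPLP1, at distances of 0.83 to 1.51 on the log2 scale. PPIA encodes cyclophilin A, YBX1 a cold shock domain RNA-binding protein, and the other 3 ribosomal proteins. They had 10 to 95 numbered pseudogenes each. Because a profile spans both assays, closeness to EEF1A1 picks genes with a similar gap between footprints and mRNA and favours a similar footprint change. In sgControl the log2 ratio of footprints to mRNA was -9.35 to -7.80 for the named genes, against -8.84 for EEF1A1. Footprints of RPL23A changed by 1.43, RPLP1 by 1.16 and RPS20 by 1.05, all called by edgeR but lost without sgMETTL13 replicate 2 (RPLP1 also without sgControl replicate 2). PPIA read 0.49 and YBX1 0.19, neither past the threshold.

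Genes with profiles close to that of EEF1A2 included AKAP8L, SUPT5H, CEP164 and GSE1, at distances of 0.21 to 0.27. SUPT5H encodes a transcription elongation factor subunit and CEP164 a centriole protein. The profile held the footprint libraries, so a footprint change near that of EEF1A2 follows from how these genes were picked. Their footprint log2 fold changes lay between -0.54 and -0.41 and were called by edgeR. Each lost its call without sgMETTL13 replicate 2 or sgControl replicate 2, as did AKAP8L, CEP164 and GSE1 without sgMETTL13 replicate 1, and CEP164 and GSE1 with DESeq2 or total counts as the scale. CEP164 had 1 numbered pseudogene and the other 3 had 0. The closeness is one of profile across the same libraries and says nothing else about these genes.

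The partners of the complex were mixed. Of 10 tRNA synthetase and scaffold genes listed as partners, 3 rose in footprints, 1 fell and 6 did not pass. Of all genes tested, 8.94% were called higher and 12% lower. Their median log2 fold change was 0.18 against 0.01 over the genes tested. VARS1, the valyl-tRNA synthetase that forms a stable complex with the exchange factor subunits, read 117 and 92.2 footprint CPM in sgMETTL13 and 142 and 167 CPM in sgControl. VARS1 fell by 0.56 on the log2 scale, with an SE of 0.142 and an edgeR adjusted p of 0.00578, and lost the call without sgMETTL13 replicate 2 or sgControl replicate 2. Its mRNA had 31 to 101 counts a library, so that its footprint CPM were 36.6 to 112 times its mRNA CPM.

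Of the 3 scaffold genes of the multi-synthetase complex in that list, EEF1E1 and AIMP2 rose, and AIMP1 read 0.06 (SE 0.119, edgeR adjusted p = 0.768). EEF1E1 (AIMP3) read 22 and 29.1 footprint CPM in sgMETTL13 and 18.9 and 11.1 CPM in sgControl, a log2 fold change of 0.74 (SE 0.210). AIMP2 read 57.2 and 78.5 CPM in sgMETTL13 and 46.2 and 39.8 CPM in sgControl, a log2 fold change of 0.65 (SE 0.161). CARS1, the cysteinyl-tRNA synthetase, rose by 0.44. Without sgMETTL13 replicate 2 none of these 10 genes was called in either direction, EEF1E1 also lost its call without sgControl replicate 2, and CARS1 without either replicate 1. With DESeq2 EEF1E1 and CARS1 did not pass, and 1 of the 10 genes was called higher.

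Among enzymes that modify eEF1A, METTL13 itself fell by 1.41 in log2 footprints, with an SE of 0.164 and an edgeR adjusted p of 6.38e-07. The lysine methyltransferase genes of eEF1A read 0.43 for EEF1AKMT1 (SE 0.210), 0.43 for EEF1AKMT2 (SE 0.242), 0.13 for EEF1AKMT3 (SE 0.319) and 0.04 for EEF1AKMT4 (SE 0.248), none past the threshold. Without sgControl replicate 1, which leaves 1 footprint library in that arm, EEF1AKMT1 read 0.80. The list of 8 also held METTL21A, ETFBKMT and ICMT, which act on other proteins. METTL21A and ETFBKMT were too low in footprints to be tested, and ICMT did not pass.

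GTPases related to eEF1A gave 0 calls among 8 in footprints, where 21% of all genes tested were called. The smallest p of that list belonged to GTPBP2, a ribosome rescue GTPase, at -0.41 (SE 0.158, edgeR adjusted p = 0.0598), ahead of HBS1L, which pairs with Pelota on stalled ribosomes, at 0.29 (SE 0.138). EIF2S3, the GTP-binding subunit of eIF2, read 0.21, and the release factor GTPase GSPT1 read 0.10. Without sgControl replicate 1, which leaves 1 footprint library in that arm, HBS1L read 0.42.

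Among 12 other elongation and termination factors 3 rose in footprints and 1 fell, against 8.94% and 12% of all genes tested. The median log2 fold change of the 12 was 0.25. ETF1, the release factor that reads stop codons, rose by 0.51, the mitochondrial recycling factor GFM2 by 0.40 and EIF5A2, a paralog of the hypusinated factor eIF5A, by 0.73. DOHH, which completes hypusine on eIF5A, fell by 0.57. EEF2, which moves the ribosome after eEF1A has delivered a tRNA, read 0.07 (SE 0.115). Without sgControl replicate 2 the list held 0 calls, and without sgMETTL13 replicate 1 or replicate 2 it held 1 that rose. It held 5 that rose without sgControl replicate 1 or with no expression filter, 1 with DESeq2, where DOHH, GFM2 and EIF5A2 did not pass, and 1 with the replicate block. DOHH and EIF5A2 also did not pass with total counts as the scale.

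TOP mRNAs are the class to which eEF1 transcripts largely belong, though no start window was available for EEF1A2. Outside the complex, 8 of 20 such genes rose in footprints while 0 fell, against 8.94% and 12% of all genes tested. Of the 20, 13 had 5 or more numbered pseudogenes, a class in which 25.4% of genes were called higher, and the part of pseudogene number in this count was not tested. Their median log2 fold change was 0.33. EIF3F, a subunit of initiation factor eIF3, rose by 1.2, RPS3 by 0.98, RPL5 by 0.81 and the nucleolar chaperone NPM1 by 0.80. Without sgMETTL13 replicate 2 the count was 5, and without sgControl replicate 1, 4 of the 20 fell. Either fit leaves 1 library in an arm and no spread within it, and calls over the whole table shifted too. In mRNA 0 of these 20 genes, 0 of the 10 partners and 0 of the 8 modifier genes passed.

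**Figure D5:**
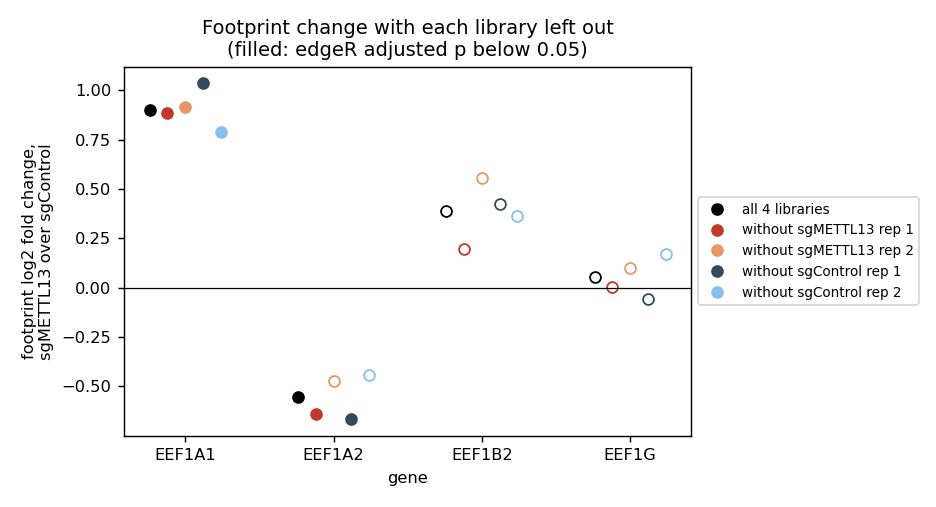
Footprint log2 fold change of sgMETTL13 over sgControl for each eEF1 gene with all 4 footprint libraries and with each left out; filled points passed at an edgeR adjusted p below 0.05. EEF1A1 stays filled between 0.79 and 1.03, EEF1A2 is open without sgMETTL13 replicate 2 or sgControl replicate 2, and EEF1B2 and EEF1G are open throughout. Each fit with a library left out has 1 library in an arm, so passing there does not establish a change.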

How the data were processed

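The deposited table holds raw counts for each gene symbol in 8 libraries, not normalised by the authors. Per the submitters' processing notes, which give no roles, the tools were HISAT2 2.0.4, featureCounts, cutadapt 1.18, Bowtie 1.2.2 and UMI-tools, and the build was hg38. How reads with several matches or duplicate molecules were counted is not given in the sources used here. The 4 footprint and the 4 mRNA libraries were fitted apart with edgeR 4.0.16 in R 4.3.3, by the quasi-likelihood F test, after filterByExpr and TMM scaling of the genes kept. Footprints per mRNA were the guide by assay interaction over all 8 libraries. Benjamini-Hochberg adjustment ran over every gene tested. Each SE is the absolute log2 fold change divided by the root of its F value. Alternatives were DESeq2 1.42.0, voom in limma 3.58.1, other scalings and filters, blocks and left-out libraries. The fits were tested on simulated counts. In the shallowest footprint library 3 counts, the limit set for a gene seen 0 times, equal 0.495 CPM. Members and lists were chosen with earlier results of these data known. The text names the eEF1 genes, METTL13, up to 4 members of each list by smallest footprint p, and the 5 genes nearest in centred log2 profile to each eEF1A paralog, with a mean of at least 5 CPM in both assays. One gene that this rule takes is not reported here. Other list genes were named after their values were seen. Levels per coding length were planned but not computed, as no lengths were used here.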

Additional observations from a re-analysis of the deposited data

How the results depend on the processing

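With all 8 libraries in one model, EEF1A1 footprints read 0.90 and EEF1A2 footprints -0.56 without passing (adjusted p = 0.418 and 0.592), and 0 genes were called in footprints. DESeq2 called 1371 genes in footprints and 5 in footprints per mRNA. With DESeq2, limma voom, RLE size factors, total counts or no expression filter the footprint calls of EEF1A1 and EEF1A2 held. EEF1A2 mRNA read -0.0089 with total counts as the scale. Leaving out 1 library each gave these ranges. Footprint log2 fold changes spanned 0.79 to 1.03 for EEF1A1, -0.66 to -0.44 for EEF1A2, 0.19 to 0.55 for EEF1B2 and -0.058 to 0.17 for EEF1G. mRNA changes spanned -0.25 to -0.00097 for EEF1A1, -0.24 to 0.29 for EEF1A2, -0.045 to 0.44 for EEF1B2 and -0.36 to 0.26 for EEF1G. Footprints per mRNA spanned 0.93 to 1.184 for EEF1A1, -0.86 to -0.28 for EEF1A2, -0.021 to 0.44 for EEF1B2, -0.22 to 0.45 for EEF1G and -0.29 to 0.30 for METTL13. Genes called ran from 709 (without sgMETTL13 replicate 2) to 3062 (without sgControl replicate 1) in footprints, with 836 without sgControl replicate 2, 0 to 2506 in mRNA and 0 to 1381 in footprints per mRNA. YBX1 footprints read -0.13 at the lowest and 0.45 at the highest. The cause of these shifts was not tested.

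The arms share replicate numbers, and nothing in the labels pairs them. With the replicate number as a block, 1729 genes were called in footprints, EEF1A1 read 0.91 and EEF1A2 -0.55, and both kept their calls, while CARS1, GFM2, EIF5A2, CEP164 and GSE1 lost theirs. Deviations of same-numbered footprint libraries correlated at -0.21 across 10446 genes, and those of same-numbered mRNA libraries at 0.44, with 2 numbers in each arm. The crossed footprint pairing, added after seeing the data, called 3220 genes. The paralog ratio was the same under pairing (1.47 in footprints, exact permutation p = 0.5, the smallest that 2 pairs allow). The alternative of transcript in place of coding length was not run, as no lengths were used.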
